A study of Mus musculus with 3 samples.

Results

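The IL-15, IL-7 and IL-2 family axis was taken as 7 genes of the 32285 in the gene table: the ligands *Il15* and *Il7*, the high-affinity chain *Il15ra*, and the receptor chains *Il2ra*, *Il2rb*, *Il2rg* and *Il7r*. They were found by gene symbol, and each was counted in every cell with at least 200 genes and at most 10% of its UMIs (unique molecular identifiers, 1 per captured transcript) from mitochondrial genes. Droplet-based single-cell RNA sequencing had been run on dorsal skin of 25-week-old female C3H/HeN mice in 3 groups: a vehicle-treated negative control (Neg), an alopecia areata model (AA), and the AA model given an antibody that neutralizes CXCL12 (AA+Ab), whose dose and timing are not given in the sources used here. Alopecia areata is an autoimmune hair loss, and the model is made by transferring lymph node cells of an affected donor into healthy mice of the same strain. Skin of 7 to 8 mice was pooled into 1 library per group, so differences between mice cannot be separated from differences between groups. No test was possible, and every interval given below is a 95% exact interval that covers counting error alone. After doublets were removed, the members were counted in 6215 Neg, 9525 AA and 9006 AA+Ab cells with a median of 13258, 10835 and 10998 UMIs per cell. The libraries shared 17 to 28 cell barcodes in each pair.

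Interleukin-15 is a survival and activation signal for CD8+ T cells, natural killer (NK) cells and the gamma-delta T cells of the epidermis. It is usually held on the surface of the producing cell by IL-15Ra, encoded by *Il15ra*, and shown from there to neighbours that carry IL-2Rb (*Il2rb*) and the common gamma chain (*Il2rg*). IL-2 uses the same pair of chains together with IL-2Ra (*Il2ra*), which raises its affinity and marks regulatory and activated T cells. IL-7, which keeps resting and memory T cells alive, signals through IL-7Ra (*Il7r*) and the common gamma chain. All of these receptors work through the kinases JAK1 and JAK3, and JAK inhibitors are used to treat alopecia areata. In hair follicles, IL-7 and IL-15 are known as products of keratinocytes that hold T cells in the skin.

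On the mouse genome (GRCm38), *Il15ra* lies on the plus strand at chr2:11705290-11734317, and *Il2ra* lies upstream of it on the same strand at chr2:11642807-11693193, with 12096 bases between them. *Il15* was annotated at chr8:82331632-82403222, *Il7* at chr3:7569994-7613760, *Il7r* at chr15:9505788-9530176, *Il2rb* at chr15:78479256-78495271 and *Il2rg* at chrX:101264378-101268255, all on the minus strand. All 7 are protein-coding genes. RefSeq windows of 250 bases before to 50 bases after a transcription start (GRCm38.p6) were found for 4 of the 7 members, with *Il15ra* having 2 starts. Both windows of *Il15ra*, the member with the largest difference between libraries over all cells, and that of *Il7r*, which was lower in AA than in both other libraries in T cell-like cells, are shown 5′ to 3′ on the strand of the gene. Capitals mark GAAANNGAA, a part of the interferon-stimulated response element, or TTCNNNGAA, the core of the element bound by STAT5. The first motif was shortened after a longer form, with 1 further A at its end, had been found in none of the members' windows.
Il15ra, upstream start, chr2:11705043-11705342: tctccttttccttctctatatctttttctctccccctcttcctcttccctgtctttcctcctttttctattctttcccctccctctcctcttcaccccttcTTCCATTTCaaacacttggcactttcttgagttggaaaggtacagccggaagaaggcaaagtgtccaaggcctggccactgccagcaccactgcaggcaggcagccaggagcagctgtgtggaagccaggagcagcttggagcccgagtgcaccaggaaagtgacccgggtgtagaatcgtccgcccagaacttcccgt
Il15ra, downstream start, chr2:11705462-11705761: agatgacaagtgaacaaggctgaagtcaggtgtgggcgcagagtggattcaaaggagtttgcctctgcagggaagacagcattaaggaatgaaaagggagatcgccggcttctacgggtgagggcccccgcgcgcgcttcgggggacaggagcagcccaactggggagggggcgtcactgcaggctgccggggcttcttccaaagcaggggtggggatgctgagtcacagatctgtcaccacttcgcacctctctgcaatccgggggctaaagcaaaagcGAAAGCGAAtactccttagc
Il7r, chr15:9529827-9530126: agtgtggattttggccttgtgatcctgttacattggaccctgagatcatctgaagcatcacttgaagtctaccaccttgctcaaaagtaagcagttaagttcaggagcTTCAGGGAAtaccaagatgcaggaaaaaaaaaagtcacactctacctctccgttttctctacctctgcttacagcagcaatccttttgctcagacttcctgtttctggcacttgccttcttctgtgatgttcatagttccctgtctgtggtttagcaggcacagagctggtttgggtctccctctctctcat
Counted from 0 at the start, the upstream *Il15ra* window held GAAANNGAA on the opposite strand at -149 to -141, where it reads TTCCATTTC on the strand shown. The downstream *Il15ra* window held it on the same strand, as GAAAGCGAA, at 30 to 38. The *Il7r* window held TTCNNNGAA, which reads the same on both strands, as TTCAGGGAA at -142 to -134. That position is counted from the RefSeq start. The whole *Il7r* window, chr15:9529827-9530126, lies inside the gene as annotated above, which ends at 9530176 on the minus strand. Searched on both strands, GAAANNGAA was in 8.56% of 32851 promoter windows of this length, the longer form in 3.44% and TTCNNNGAA in 8.30%. Neither motif was in the windows of *Il2ra* and *Il2rg*.

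Over all cells, *Il15ra* and *Il2ra* were higher in AA than in Neg, and both were lower in AA+Ab than in AA. *Il15ra*, which presents IL-15, was at 20.7 CPM (UMIs of the gene per 1000000 UMIs of the cells described, with an interval of 19.9 to 21.6) in Neg, 39.5 CPM (38.3 to 40.6) in AA and 16.2 CPM (15.5 to 17.0) in AA+Ab. The AA library stood above both others without overlap of the intervals, by 0.93 (0.85 to 1.00) on the log2 scale against Neg, and AA+Ab differed from AA by -1.28 (-1.36 to -1.20). *Il2ra* was at 2.36 CPM in Neg, 4.22 CPM in AA and 2.45 CPM in AA+Ab, again highest in AA, with log2 ratios of 0.84 (0.62 to 1.06) to Neg and, for AA+Ab against AA, -0.79, with an interval that ended at -0.58. A gene was counted as higher or lower when its ratio was at least 1.5-fold, its interval excluded 1 and both libraries together held at least 20 UMIs. By that rule 2 of 7 members were higher in AA than in Neg, where 6.21% of 19220 genes were, and none was lower (6.56% of all genes). The same 2 members were lower in AA+Ab than in AA, where 8.7% of 19175 genes were, and none was higher (4.57%). With every cell thinned to 1000 UMIs, the log2 ratios of *Il2ra* were 0.54 and -0.15, both under 1.5-fold. The median log2 ratio was 0.33 over the members and -0.06 over all genes for AA against Neg, and -0.36 and -0.01 for AA+Ab against AA. These comparisons share the AA library.

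**Figure D1:**
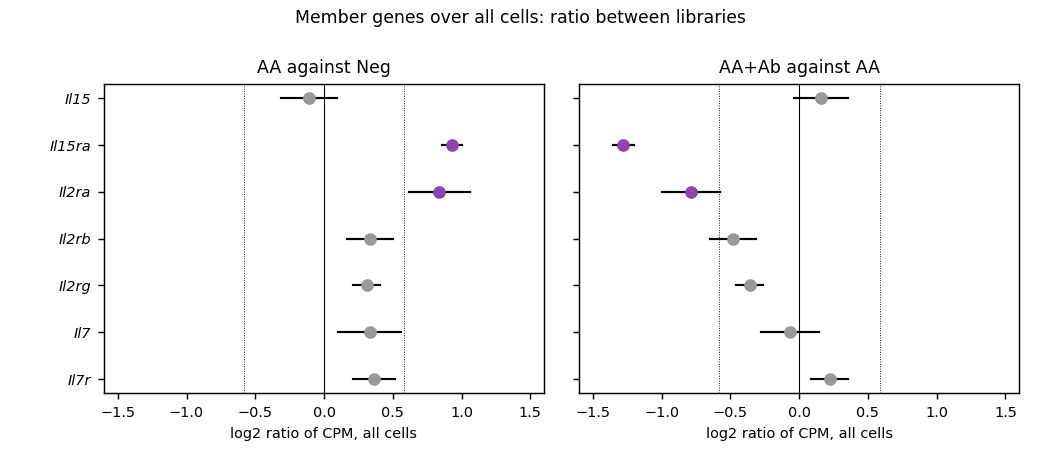
Log2 ratio of CPM over all cells for the 7 members, AA against Neg on the left and AA+Ab against AA on the right. Points are ratios of summed UMIs, lines are 95% counting intervals, dotted lines mark 1.5-fold and purple points pass it, which holds for *Il15ra* and *Il2ra* to the right of 0 in the first panel (0.93 and 0.84) and to its left in the second (-1.28 and -0.79).

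The other members stayed within 1.5-fold over all cells. *Il15* itself was at 3.73 CPM in Neg (394 UMIs), 3.45 CPM in AA (407 UMIs) and 3.86 CPM in AA+Ab (465 UMIs), and the intervals of both log2 ratios, -0.11 (-0.31 to 0.09) and 0.16 (-0.04 to 0.36), included 0. *Il7* was at 2.56, 3.22 and 3.08 CPM, with a log2 ratio of 0.33 (0.10 to 0.56) for AA against Neg. *Il7r* was at 5.62, 7.24 and 8.44 CPM, with its highest value in AA+Ab. *Il2rb* was at 4.69, 5.91 and 4.23 CPM and *Il2rg* at 13.3, 16.5 and 12.8 CPM, both highest in AA. In thinned cells some of these ratios passed 1.5-fold in value: *Il15* was at -0.72 for AA against Neg and 1.34 for AA+Ab against AA, *Il7* at 1.15 for AA against Neg and *Il7r* at 0.61 for AA+Ab against AA. These rested on fewer counts. After thinning, an *Il15* UMI was in 25 Neg, 23 AA and 45 AA+Ab cells, and an *Il7* UMI in 11 Neg and 38 AA cells. For *Il7r* it was in 97 AA and 114 AA+Ab cells. Cells of a class captured in different numbers and different levels per cell give the same change in such sums, so the members were next counted by class. With each class given the weight it had in Neg, the log2 ratios of AA to Neg were 0.74 for *Il15ra*, 0.22 for *Il2ra* and -0.51 for *Il7r*. Clusters within a class were not weighted.

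Cells were clustered without the members and without the other genes of their pathway, and classes were named from marker genes. Keratinocytes made up 86.7% of Neg, 89.6% of AA and 88.6% of AA+Ab cells. Of the UMIs of all genes they held 100590434 of 105778191 in Neg, 112645591 of 117864460 in AA and 115197160 of 120524145 in AA+Ab. Markers were checked for the classes used below: in the AA library *Cd8a* was found in 68.8% of CD8+ T-like cells, *Trdc* in 90.1% of gamma-delta T-like cells, *Ncr1* in 60.6% of NK-like cells, *Cd74* in 94.3% of dendritic cell and macrophage-like (DC/Mac-like) cells and *Krt10* in 98.4% of suprabasal epidermis-like cells. Some labels were met in part. In the AA library *Klrb1c* was in 27.3% of NK-like cells, *Csf1r* in 41.5% of DC/Mac-like cells and *Cd8b1* in 45.2% of CD8+ T-like cells. *Il13* was in 3.33% of AA and 0% of AA+Ab Th2-like cells, although *Il1rl1* was in 66.7% and 82.7% of them. The keratinocytes called outer root sheath-like carried *Postn* in 60.6% to 68.0% of cells, but *Cd34*, a marker of the bulge, in 0.166% to 0.207%. *Krt5* and *Krt14* together were at 378 to 641 CPM in T cell-like cells, 359 to 1037 CPM in gamma-delta T-like cells and 1058 to 1829 CPM in DC/Mac-like cells, against 15736 to 16962 CPM in basal cells. The part of this keratinocyte RNA in the results was not tested.

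*Il15ra* UMIs were mainly counted in keratinocytes in every library, with 97.7% in Neg, 98.5% in AA and 98.2% in AA+Ab. Keratinocytes also held most UMIs of all genes, and their *Il15ra* level was close to that over all cells. It was at 21.3 against 20.7 CPM in Neg, 40.65 against 39.5 CPM in AA and 16.7 against 16.2 CPM in AA+Ab. In basal epidermis-like cells, which line the basement membrane, it was at 42.0 CPM (39.7 to 44.4) in Neg, 73.0 CPM (70.4 to 75.6) in AA and 33.8 CPM (31.8 to 35.8) in AA+Ab. The AA level was the highest, with log2 ratios of 0.80 (0.70 to 0.89) to Neg and -1.11 (-1.21 to -1.01) for AA+Ab against AA. An *Il15ra* UMI was found in 29.8%, 33.4% and 22.7% of these cells at median depths of 12333, 10557 and 10718 UMIs. In hair lineage-like keratinocytes, which were sequenced deeper with medians of 18270 to 23040 UMIs, the share was 2.30%, 2.26% and 0.839%. With every cell thinned to 1000 UMIs, the basal shares were 4.07%, 6.76% and 3.05%, after 289 Neg, 80 AA and 147 AA+Ab cells of all classes under that depth had been left out.

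Suprabasal epidermis-like cells, the differentiating layers, had *Il15ra* at 33.9, 52.5 and 23.8 CPM in Neg, AA and AA+Ab, and upper follicle-like cells at 26.0, 45.7 and 23.1 CPM. Cycling keratinocytes were lower throughout, at 4.94, 10.0 and 3.03 CPM, yet showed the same order. Outer root sheath-like cells were at 19.4, 29.2 and 17.8 CPM, but with coarser clusters the AA to Neg ratio of that class turned to -0.51 and the AA+Ab to AA ratio to 0.016 on the log2 scale. In sebaceous gland-like cells, Neg was at 37.3 CPM, AA at 38.8 CPM and AA+Ab at 16.9 CPM, with the log2 ratio of AA to Neg between -0.64 and 0.79. *Il15ra* was at least 1.5-fold higher in AA than in Neg in 5 keratinocyte classes, namely basal, suprabasal, outer root sheath-like, upper follicle-like and cycling, where 3.69%, 4.14%, 3.68%, 6.37% and 2.8% of all genes tested were. In AA+Ab it was lower than in AA in these 5 classes, where 6.66%, 6.67%, 7.35%, 10.1% and 6.67% of genes were lower, and in the sebaceous (11%) and hair lineage (7.42%) classes, the last from 23 and 11 UMIs. The outer root sheath-like ratios did not hold with coarser clusters, as given above. Over all keratinocytes, *Il15ra* was the 1 member of 7 higher in AA than in Neg (4.46% of genes). There 3 of 7 were lower in AA+Ab than in AA (8.24% of genes), *Il15ra* and, from low counts, *Il2ra* (42 and 17 UMIs) and *Il2rb* (29 and 14 UMIs).

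The difference in basal cells was unevenly spread over the 3 clusters of that class. Cluster 3, with *Itgb6*, *Nrg1*, *Ifi202b* and *Ptgs2* among its leading genes, had *Il15ra* at 102 CPM (94.95 to 110) in Neg, 146 CPM (140 to 151) in AA and 93.8 CPM (85.8 to 102) in AA+Ab. It held 479 Neg, 1482 AA and 452 AA+Ab cells, so it weighed more in the basal sum of AA than in the others. Its log2 ratio of AA to Neg was 0.51 (0.39 to 0.63), below 1.5-fold, and that of AA+Ab to AA was -0.63 (-0.78 to -0.49), in a cluster where 5.84% of genes were lower. In cluster 0 the levels were 25.6, 25.9 and 22.1 CPM, with a log2 ratio of AA to Neg of 0.01 (-0.19 to 0.22). In cluster 1 they were 22.4, 29.0 and 22.4 CPM, with a ratio of 0.37 (0.11 to 0.64). Within each basal cluster the ratio was therefore smaller than the 0.80 of the pooled class. The share of cluster 3 cells with an *Il15ra* UMI was 56.0% in Neg and 55.7% in AA, and 10.0% and 13.7% after thinning.

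**Figure D2:**
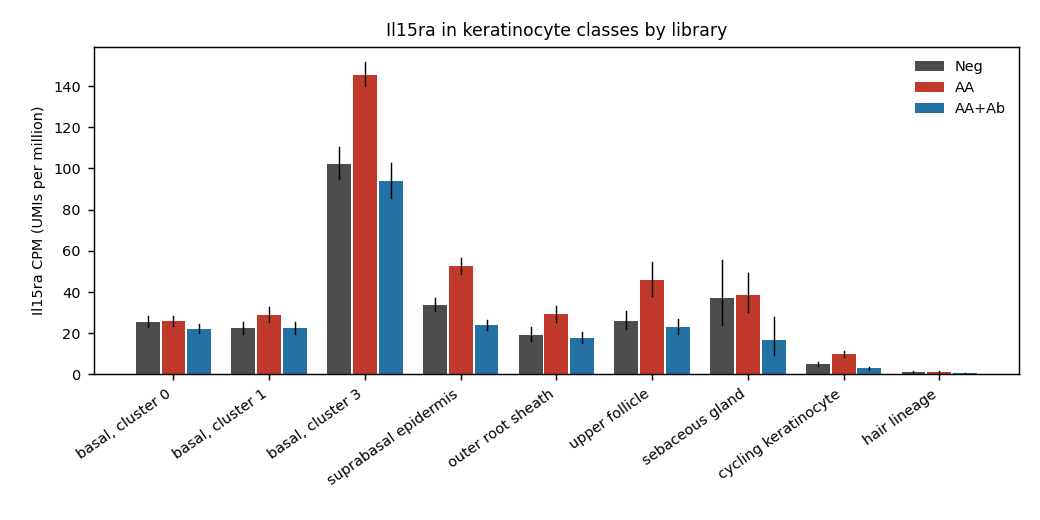
*Il15ra* level (CPM, linear axis from 0) in the 3 basal clusters and the other keratinocyte classes, with 1 bar for each of the Neg, AA and AA+Ab libraries and lines for the 95% counting intervals. In this plot the bars of basal cluster 3 (102, 146 and 93.8 CPM) are the tallest, and those of the hair lineage, at 0.474 to 1.24 CPM, are close to 0.

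Outside keratinocytes, *Il15ra* counts were small. Endothelium-like cells had 21 UMIs in Neg (38.4 CPM), 3 in AA and 4 in AA+Ab. The 8 B cell-like cells of AA had 10 UMIs (101 CPM). Fibroblast-like cells had 3 UMIs in Neg, 21 in AA and 2 in AA+Ab, that is 7.74, 31.6 and 11.5 CPM. T cell-like cells held 17 UMIs in 3.73% of AA cells and 8 UMIs in 3.08% of AA+Ab cells. In Neg 0 of 76 had a UMI, which by the limit of 3 counts allows a share of up to 3.95% of cells with a UMI.

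*Il15* UMIs were also carried mostly by keratinocytes, with 79.7% in Neg, 74.0% in AA and 71.8% in AA+Ab. The keratinocyte level of 3.12, 2.67 and 2.90 CPM was below the 3.73, 3.45 and 3.86 CPM over all cells. It was highest in monocyte/neutrophil-like cells, at 478 CPM (331 to 667) in 23 Neg cells, 663 CPM (386 to 1062) in 10 AA cells and 490 CPM (402 to 592) in 82 AA+Ab cells. The intervals of these libraries overlapped. Suprabasal epidermis-like cells had 10.7 CPM (9.01 to 12.7) in Neg, 7.73 CPM (6.31 to 9.37) in AA and 10.1 CPM (8.52 to 11.9) in AA+Ab, and AA was the lowest, with log2 ratios of -0.47 (-0.86 to -0.10) and 0.39 (0.01 to 0.76) that stayed within 1.5-fold. In upper follicle-like cells *Il15* was at 8.39, 12.96 and 8.62 CPM, with overlapping intervals. Basal cells had 1.17, 0.925 and 0.668 CPM, near the 1.02 to 1.83 CPM of the hair lineage, in which 2.18% to 2.57% of cells had a UMI. In that lineage *Il15* was higher in AA than in Neg, from 34 and 22 UMIs, by 0.84 (0.02 to 1.68) on the log2 scale, where 3.32% of genes were. In thinned cells the ratio was -0.16, but there only 1 Neg and 1 AA cell had a UMI. No *Il15* UMI was found in the CD8+ T-like or epidermal gamma-delta T-like class of any library. A gamma-delta T-like sub-cluster led by *Il23r*, described with the receptors, had 3, 1 and 1 UMIs, and CD8+ cells picked by marker UMIs had 1 in Neg and 1 in AA.

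In DC/Mac-like cells, antigen-presenting cells that can show IL-15 to T cells, *Il15* was at 40.1 CPM (19.2 to 73.7) in 41 Neg cells, 101 CPM (77.1 to 130) in 106 AA cells and 21.4 CPM (7.84 to 46.5) in 74 AA+Ab cells. AA was the highest, by 1.33 (0.36 to 2.46) on the log2 scale over Neg, and AA+Ab differed from AA by -2.24 (-3.74 to -1.04). Both passed the 1.5-fold rule in a class where 7.14% of genes were higher in AA and 7.32% were lower in AA+Ab. The counts were few, at 10, 60 and 6 UMIs in 7, 25 and 5 cells, and 1 AA cell held 14 of the 60. After thinning, 8.33% of Neg, 6.86% of AA and 1.47% of AA+Ab cells of this class had an *Il15* UMI, and the log2 ratio of AA to Neg was 0.08.

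**Figure D3:**
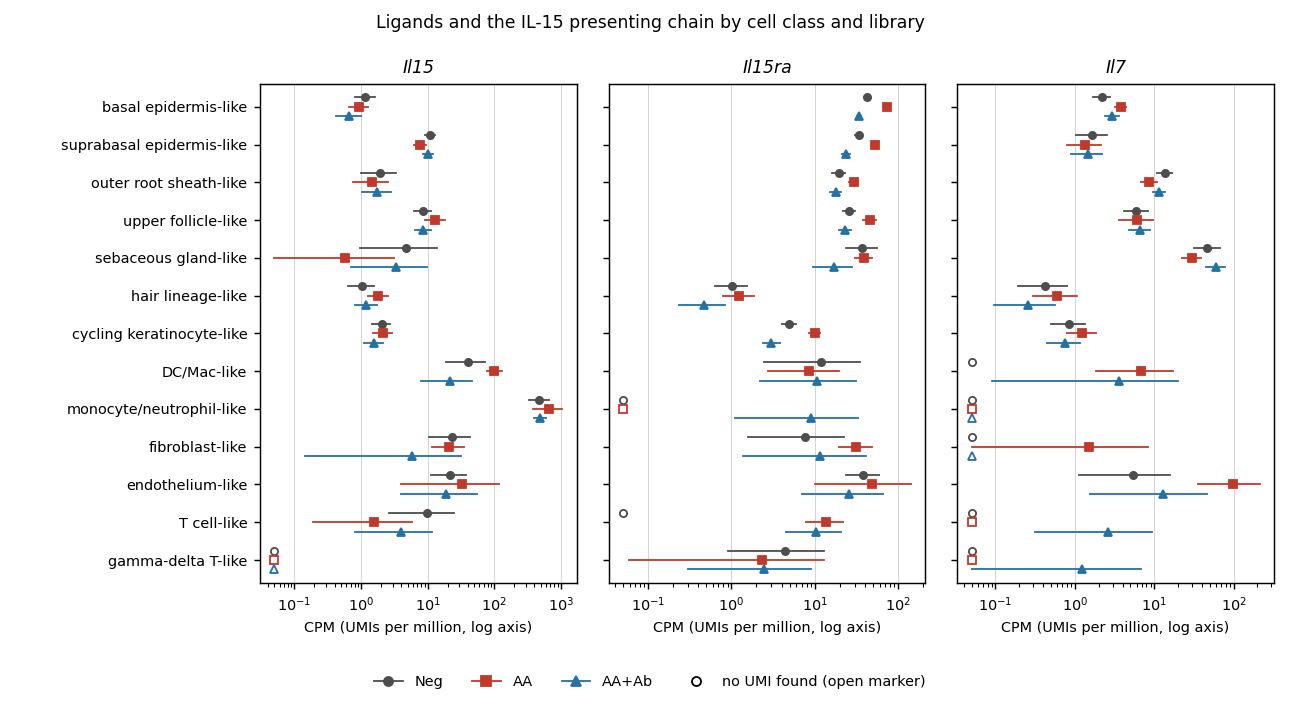
*Il15*, *Il15ra* and *Il7* by cell class (rows) and library, as CPM on a log axis with 95% counting intervals. Open markers at the left edge are classes with no UMI, and groups under 8 cells are not drawn. Of the classes drawn, *Il15* is highest in monocyte/neutrophil-like cells (478 to 663 CPM) and *Il15ra* is at 73.0 CPM in basal cells of AA, while *Il7* is at 29.6 to 59.6 CPM in sebaceous gland-like cells and at 97.9 CPM, from 6 UMIs, in endothelium-like cells of AA.

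*Il7* was almost wholly counted in keratinocytes, which carried 97.4% of its UMIs in Neg, 97.1% in AA and 97.3% in AA+Ab. Their level was close to that over all cells, at 2.625 against 2.56 CPM in Neg, 3.28 against 3.22 CPM in AA and 3.13 against 3.08 CPM in AA+Ab. Of the classes with more than 10 *Il7* UMIs, sebaceous gland-like cells had the highest level, at 46.7 CPM (31.5 to 66.6) in 24 Neg cells, 29.6 CPM (22.1 to 38.9) in 97 AA cells and 59.6 CPM (44.7 to 78.0) in 54 AA+Ab cells. Endothelium-like cells of AA had 97.9 CPM, but from 6 UMIs in 2 cells. In sebaceous gland-like cells the AA+Ab library stood above AA by 1.008 (0.43 to 1.59) on the log2 scale, where 4.28% of genes were higher, whereas the interval of AA against Neg, -0.65 (-1.33 to 0.04), included 0. In thinned cells of this class the AA+Ab against AA ratio was -0.74, but from only 5 AA cells and 1 AA+Ab cell with a UMI. With coarser clusters it was 0.017. Outer root sheath-like cells had 13.7, 8.62 and 11.6 CPM, lower in AA than in Neg by 0.67 on the log2 scale (interval of the ratio -1.15 to -0.20), where 3.61% of genes were lower. With coarser clusters that ratio was 1.28. Basal cells went the other way, from 2.20 CPM (1.70 to 2.79) in Neg to 3.81 CPM (3.26 to 4.44) in AA and 2.98 CPM (2.42 to 3.63) in AA+Ab, a log2 ratio of 0.80 (0.38 to 1.23) for AA against Neg. It was 1.27 in basal cluster 0 (2.99% of genes higher), 0.87 in cluster 1 (3.13%) and 0.42 (-0.47 to 1.39) in cluster 3, where *Il15ra* was highest. A UMI of *Il7* was found in 2.55% to 3.46% of basal cells and in 0.503% to 1.03% of the deeper hair lineage cells, and after thinning in 0.1299%, 0.492% and 0.260% of basal cells of Neg, AA and AA+Ab.

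The share of all UMIs that each class carried joins these levels with cell numbers. Suprabasal cells held 34.5% of *Il15* UMIs in Neg, 25.6% in AA and 31.4% in AA+Ab. Monocyte/neutrophil-like cells held 8.63%, 4.18% and 23.2% while being 0.370%, 0.105% and 0.911% of cells, and DC/Mac-like cells held 2.54%, 14.7% and 1.29%. For *Il15ra* the basal class held 57.6%, 67.9% and 56.7%. For *Il7* it held 24.4%, 43.4% and 26.4%, the outer root sheath-like class held 31.4%, 18.7% and 32.1%, and the sebaceous class held 11.1%, 13.7% and 14.3%.

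**Figure D4:**
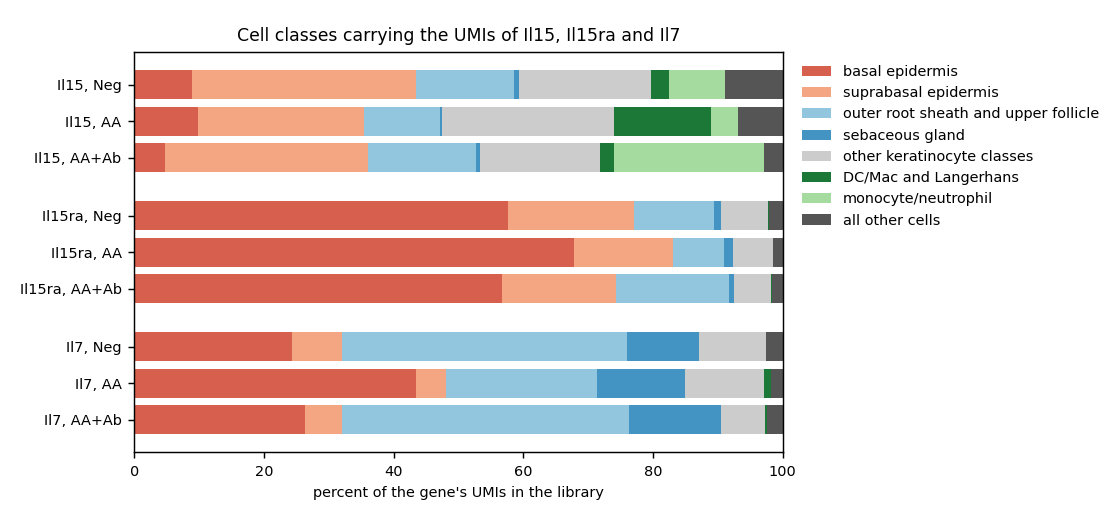
Share of the UMIs of *Il15*, *Il15ra* and *Il7* in each library (percent, bars from 0 to 100) carried by groups of cell classes, given by color. The basal part of the *Il15ra* bars is 57.6% in Neg, 67.9% in AA and 56.7% in AA+Ab, and the monocyte/neutrophil part of the *Il15* bars is 8.63%, 4.18% and 23.2%.

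The receptor chain *Il2rb*, which binds IL-15 and IL-2, was found mainly in lymphocytes. NK-like cells had 624 CPM (503 to 766) in Neg, 689 CPM (580 to 812) in AA and 692 CPM (537 to 877) in AA+Ab. Gamma-delta T-like cells, the resident T cells of mouse epidermis, had 425 CPM (377 to 476), 422 CPM (363 to 488) and 401 CPM (359 to 447), and 74.6%, 74.3% and 72.6% of them had a UMI. In both classes the 3 intervals overlapped, and the log2 ratios of gamma-delta T-like cells were -0.01 (-0.28 to 0.26) and -0.07 (-0.34 to 0.20). CD8+ T-like cells, of which there were 208 in AA, 53 in AA+Ab and only 4 in Neg, had 334 CPM (293 to 378) in AA and 301 CPM (226 to 392.4) in AA+Ab, with a log2 ratio of -0.15 (-0.60 to 0.28). A UMI was found in 53.8% and 54.7% of them, and in 20.7% and 27.1% after thinning. Treg-like cells had 278 CPM in AA and 216 CPM in AA+Ab, while Th2-like cells had 21.6 and 48.3 CPM from 3 and 11 UMIs. Keratinocytes were at 0.199, 0.257 and 0.121 CPM, with a UMI in 0.150% to 0.328% of cells. Of all *Il2rb* UMIs, gamma-delta T-like cells held 58.9% in Neg, 26.1% in AA and 63.7% in AA+Ab, and T cell-like cells 14.9%, 47.9% and 18.6%. The cells in these classes numbered 134, 101 and 186 for gamma-delta T-like and 76, 322 and 195 for T cell-like.

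*Il2rg*, the chain that all these receptors share, was found in lymphocytes and in keratinocytes. CD8+ T-like cells had 430 CPM (384 to 479) in AA and 390 CPM (304 to 492) in AA+Ab. Gamma-delta T-like cells had 350, 401 and 431 CPM in Neg, AA and AA+Ab, and NK-like cells 271, 274 and 315 CPM. Basal cells were at 18.5 CPM (17.0 to 20.1) in Neg, 18.3 CPM (17.1 to 19.6) in AA and 14.2 CPM (12.9 to 15.5) in AA+Ab, and because of their number keratinocytes carried 63.5%, 57.6% and 53.1% of its UMIs. By basal cluster, Neg and AA were at 16.8 and 12.8 CPM in cluster 0 and 13.7 and 12.8 CPM in cluster 1. Cluster 3, with 479 Neg and 1482 AA cells, was the highest, at 28.65 and 27.0 CPM. The intervals overlapped in clusters 1 and 3. The part of the cluster sizes in the pooled levels was not tested. A UMI was found in 17.8%, 14.2% and 12.0% of basal cells, against 1.26%, 1.34% and 0.839% of the deeper hair lineage cells, and in 2.04%, 1.62% and 1.33% of basal cells after thinning. A UMI of any of 8 T cell marker genes was seen in 12.9%, 8.84% and 9.21% of basal cells with *Il2rg* and in 9.73%, 6.09% and 6.81% of basal cells without it, compared with 97.4%, 97.5% and 94.9% of T cell-like cells. Among keratinocytes, *Il2rg* was higher in AA than in Neg in the cycling class (3.52, 6.06 and 3.11 CPM in Neg, AA and AA+Ab) and lower in the suprabasal class (8.13, 4.61 and 5.53 CPM), where 10.2% of genes were lower. In thinned cells the suprabasal ratio reversed to 2.44, from 1 Neg and 10 AA cells with a UMI.

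*Il2ra*, the chain of activated and regulatory T cells, was concentrated in T cell-like cells, which held 70.0% of its UMIs in Neg, 73.9% in AA and 86.8% in AA+Ab from 1.22%, 3.38% and 2.17% of cells. Within T cells the level depended on the subset. Treg-like cells had 568 CPM (414 to 760) in 13 AA cells and 712 CPM (490.1 to 999.9) in 14 AA+Ab cells, and Th2-like cells 533 CPM (418 to 669) and 637 CPM (537 to 749). CD8+ T-like cells were lower, at 184 CPM (154 to 217) in AA and 94.7 CPM (55.2 to 152) in AA+Ab. Their AA+Ab to AA ratio was -0.96 (-1.78 to -0.22) on the log2 scale, from 136 and 17 UMIs, with a UMI in 25.0% and 13.2% of cells (12.6% and 2.08% after thinning) and at most 15 and 8 in 1 cell. It made *Il2ra* the 1 member of 4 tested in these cells that was lower in AA+Ab, where 8.95% of genes were, and no member was higher (4.71%). CD8+ cells picked instead by marker UMIs in each cell had 253 and 127 CPM. Naive-like T cells had no *Il2ra* UMI in any library, gamma-delta T-like cells had 13.1, 6.96 and 2.47 CPM, and 0.163% to 0.351% of keratinocytes had a UMI.

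Among the T cell-like cells was a sub-cluster of gamma-delta T-like cells led by *Il23r*. It had *Il2ra* at 673 CPM (527 to 848) in 18 Neg cells, 602 CPM (437 to 808) in 16 AA cells and 203 CPM (120 to 320) in 22 AA+Ab cells. AA+Ab was the lowest, by -1.57 (-2.45 to -0.75) against AA, where 10.7% of genes were lower. *Il2rg* was also lowest in AA+Ab in these cells, at 486, 547 and 169 CPM, with a log2 ratio of -1.70 (-2.66 to -0.81). *Il7r* was at 1216, 1354 and 1722 CPM. In NK-like cells *Il2ra* was at 81.4 CPM in Neg, 293 CPM in AA and 112 CPM in AA+Ab, with log2 ratios of 1.85 (0.94 to 2.88) and -1.39 (-2.47 to -0.45), but 1 AA cell held 22 of the 60 AA UMIs. It was the 1 of 4 members tested in NK-like cells that differed by the rule, higher in AA (12.3% of genes) and lower in AA+Ab (8.26%).

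*Il7r*, the IL-7 receptor chain of resting T cells, was lowest in AA in T cell-like cells. It was at 981 CPM (887 to 1082) in Neg, 533 CPM (493 to 574) in AA and 1123 CPM (1049 to 1200) in AA+Ab. The log2 ratios were -0.88 (-1.06 to -0.70) to Neg, where 6.13% of genes tested in T cells were lower, and 1.08 (0.93 to 1.22) for AA+Ab against AA, where 4.8% were higher. A UMI was found in 92.1%, 50.9% and 76.4% of T cell-like cells at median depths of 4910, 3510 and 3929 UMIs, and in 55.3%, 26.3% and 53.7% after thinning. In keratinocytes, which should lack it, the share was 0.445% to 0.538%. These libraries held different T cells: CD8+ T-like cells were 208 of 322 in AA, 53 of 195 in AA+Ab and 4 of 76 in Neg. Neg held instead 20 naive-like cells, 18 cells of the *Il23r*-led sub-cluster, and 18 of an unnamed sub-cluster led by *Ctnna2* and *Arg1*. In CD8+ T-like cells *Il7r* was at 244 CPM (210 to 283) in AA and 362 CPM (279 to 461) in AA+Ab, a log2 ratio of 0.57 (0.13 to 0.98) that stayed within 1.5-fold and was -0.021 with finer clusters. In Th2-like cells it was at 814 CPM (671 to 979) and 1326 CPM (1181 to 1485), higher in AA+Ab by 0.70 (0.39 to 1.03), where 4.15% of genes were. Naive-like cells had 1032, 1032 and 1250 CPM.

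The T cell ratios also depended on how T cells were taken. They were also picked by marker UMIs in each cell, which brings in epidermal gamma-delta T cells and can bring in other cells low in keratin UMIs. *Il7r* was then at 182, 291 and 295 CPM and *Il2ra* at 71.9, 178 and 89.8 CPM in 237 Neg, 330 AA and 357 AA+Ab cells. Both were higher in AA than in Neg. In Neg, *Il2rg* was at 162 CPM in the picked cells, below the 271 to 405 CPM of T cell-like, gamma-delta T-like and NK-like cells. Cells of other classes may thus have been picked, and their part in these ratios was not tested. In T cell-like cells *Il2ra* had been at 427 CPM (366 to 495), 293 CPM (264 to 325) and 335 CPM (295 to 379). *Il2rb* in T cell-like cells was at 181, 266 and 124 CPM, with a log2 ratio of AA+Ab to AA of -1.09 (-1.44 to -0.76). In cells picked by marker UMIs it was at 169, 257 and 172 CPM, and that ratio was -0.58, under 1.5-fold. *Il2rg* was at 405, 421 and 358 CPM in T cell-like cells and at 162, 294 and 224 CPM in cells picked by marker UMIs, where the ratio of AA to Neg was 0.86. Of the members tested in T cell-like cells, 1 of 4 was lower in AA than in Neg (*Il7r*), where 6.13% of genes were lower. In AA+Ab 1 of 5 was higher than in AA (*Il7r*), where 4.8% of genes were higher, and 1 lower (*Il2rb*), where 8.43% were lower. Epidermal gamma-delta T-like cells had *Il7r* at 29.1, 13.9 and 0 CPM, and Langerhans-like cells, of which 8 to 11 were found, had 179, 352 and 379 CPM.

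**Figure D5:**
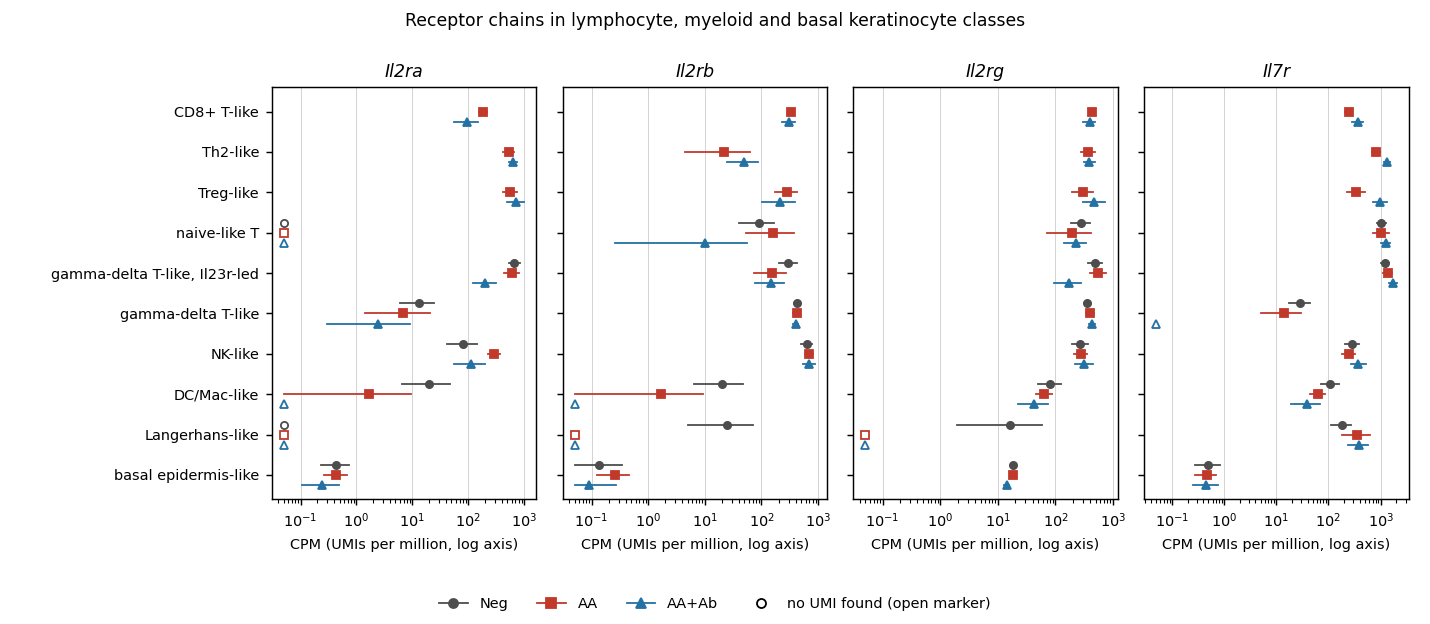
*Il2ra*, *Il2rb*, *Il2rg* and *Il7r* in T cell subsets, other immune classes and basal keratinocytes, as CPM on a log axis with 95% counting intervals. Open markers are classes without a UMI, and groups under 8 cells, among them the 4 CD8+ T-like and 5 Th2-like cells of Neg, are not drawn. *Il2rb* is high in NK-like and gamma-delta T-like cells of all libraries (401 to 692 CPM). *Il7r* is at 1032 to 1722 CPM in naive-like and *Il23r*-led cells and at 0 to 29.1 CPM in gamma-delta T-like cells. In AA and AA+Ab it is at 814 and 1326 CPM in Th2-like cells and at 341 and 971 CPM in Treg-like cells.

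Chains of 1 receptor were also looked for in the same cell. *Il2rb* and *Il2rg*, the pair that receives IL-15, were both found in 56.0% of gamma-delta T-like cells in Neg, 53.5% in AA and 54.8% in AA+Ab, and in 79.2%, 63.6% and 66.7% of NK-like cells. CD8+ T-like cells had both in 38.5% in AA and 41.5% in AA+Ab. After thinning these shares were 12.9%, 8.08% and 12.1% in gamma-delta T-like cells and 6.57% and 10.4% in CD8+ T-like cells. Basal cells had both in 0.0432%, 0.0245% and 0% of cells. The IL-7 pair, *Il7r* with *Il2rg*, was found in 27.9% and 28.3% of CD8+ T-like cells in AA and AA+Ab, and in 72.4%, 39.4% and 50.3% of T cell-like cells. All 3 chains of the high-affinity IL-2 receptor were found together in 13.5% of CD8+ T-like cells in AA and 7.55% in AA+Ab. *Il15* and *Il15ra* were found in the same cell in 8.44%, 2.76% and 4.38% of suprabasal cells and in 11.7%, 4.81% and 5.50% of upper follicle-like cells, but in none of them after thinning.

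The rest of the pathway was read from 5 lists of 34 genes. Over all cells, 5 of the 32 tested were higher in AA than in Neg and none was lower, with a median log2 ratio of 0.21, where 6.21% of all genes were higher and 6.56% lower. They were the T cell growth factor *Il2* (1.10, 1.97 and 1.34 CPM in Neg, AA and AA+Ab), the receptor chains *Il9r* (0.1702, 0.458 and 0.440 CPM) and *Il21r* (0.652, 3.58 and 0.938 CPM), the feedback inhibitor *Socs1* (5.27, 10.1 and 6.95 CPM) and the STAT5 target *Pim1* (72.0, 124 and 87.2 CPM). None of the 9 transducers was among them: *Jak1* was at 161, 223 and 156 CPM, *Jak3* at 1.27, 1.43 and 1.08 CPM and *Stat5a* at 9.99, 9.86 and 9.09 CPM. In AA+Ab 3 of 32 were lower than in AA, namely *Il21r*, *Il4* (21 and 6 UMIs) and *Lta*, a share near the 8.7% of all genes. None was higher, and the median was -0.25. *Il21* had no UMI in any library, and *Il9* had 8, 3 and 2. In keratinocytes 3 of 29 were higher in AA, where 4.46% of all genes were, namely *Socs1* (4.81, 9.10 and 6.11 CPM), *Pim1* (65.5, 111 and 72.4 CPM) and *Il21r* (4, 17 and 3 UMIs).

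In T cell-like cells, 5 of 29 listed genes were higher in AA than in Neg, where 13.9% of all genes were, and 6 were lower, where 6.13% were. The higher ones were *Il2* (31.7, 108 and 95.6 CPM), *Il21r* (112, 298 and 114 CPM), *Stat3* (305, 469 and 255 CPM), *Cish* (107, 191 and 177 CPM), an inhibitor induced by STAT5, and *Socs1* (26.8, 57.3 and 76.0 CPM). Those lower in AA were *Stat5a*, *Stat5b* (525, 267 and 313 CPM), *Gab2*, *Myc*, *Lta* and the survival gene *Bcl2* (408, 185 and 312 CPM). CD8+ T-like cells were 208 of 322 T cell-like cells in AA, 53 of 195 in AA+Ab and 4 of 76 in Neg. The part of these subset numbers in the differences was not tested. In AA+Ab against AA, *Bcl2* was higher, where 4.8% of all genes were, and *Il21r*, *Stat3* and *Pim2* were lower, where 8.43% were. In CD8+ T-like cells 2 of 24 were higher in AA+Ab than in AA, where 4.71% of all genes were, and 1 was lower, where 8.95% were. *Il2* was at 143 CPM in AA and 323 CPM in AA+Ab, a log2 ratio of 1.17 (0.69 to 1.65) from 106 and 58 UMIs, and *Socs1* was at 58.1 and 189 CPM. *Stat3* was the lower one, at 562 and 351 CPM. In gamma-delta T-like cells none of 24 was higher in AA than in Neg (5.37% of genes) and 2 were lower (4.73%), *Pim1* and *Myc*.

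The genes whose levels ran most like those of the members were ranked by Pearson correlation of log2(CPM + 1) over 57 points, each 1 class in 1 library, among 16456 genes. The points share libraries and depth, and the values are a description. *Il15ra* ran most like *Ccl27a* (0.77), *Clca3a2* (0.77) and *Tcim* (0.75), and *Il15* like *Il18* (0.79), *Hacd4* (0.76) and *Pilra* (0.75). *Il7* ran most like *Aadac* (0.77), *E030044B06Rik* (0.75) and *Antxrl* (0.73). For the receptor chains the values were higher: *Ctsw*, *Nkg7* and *Cst7* for *Il2rb* (0.95 to 0.96), *Ccr8*, *Cxcr6* and *A430093F15Rik* for *Il2ra* (0.89 to 0.91), *Ms4a6b*, *Ms4a4b* and *Cd226* for *Il7r* (0.93 to 0.94) and *Zdhhc18*, *Hcst* and *Rgs1* for *Il2rg* (0.92).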

How the data were processed

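Single-cell suspensions of pooled dorsal skin (collagenase D digestion, Percoll gradient) were run on the 10x Genomics 3′ v3.1 protocol. The authors aligned reads to mm10 and made the deposited UMI counts per gene and barcode with Cell Ranger 7.2.0, and the submitters' processing notes also name FastQC 0.11.7. The annotation release, and whether intronic reads were counted, are not given in the sources used here. The matrices held 6965 Neg, 10879 AA and 10507 AA+Ab barcodes with 121289374, 137290217 and 141998364 UMIs.

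From these counts, cells were filtered at 10% mitochondrial UMIs and 200 genes, and 367, 908 and 826 likely doublets were removed by a score against simulated doublets, at 0.8% per 1000 barcodes. All libraries were clustered together (2000 variable genes without the members and pathway genes, 30 principal components, Leiden resolution 0.8, scikit-learn 1.9.0, leidenalg 0.10.2, Python 3.11.15), which gave 25 clusters besides those of T, NK and other immune cells, which were clustered again. Classes were named from marker lists, with naming thresholds set after the clusters had been seen, and 324 Neg, 41 AA and 131 AA+Ab cells stayed unnamed. The cluster named from the list of outer bulge and outer root sheath genes is called outer root sheath-like.

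Levels are CPM, the summed UMIs of a gene per library and class over the summed UMIs of those cells. Intervals were exact (Poisson for CPM, Clopper-Pearson for shares, conditional binomial for ratios; scipy 1.17.1), and the ratio script was tested on simulated data. With 1 library per group no p-value is given. The members and the lists were chosen with earlier results of these data known. Named genes are the members, the 34 listed pathway genes, and the 3 genes most like each member among those with at least 100 UMIs, over classes with at least 20 cells. Promoter windows were copied from RefSeq. No window was used for *Il15*, *Il7* and *Il2rb*. Alternatives are given in the closing section.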

Additional observations from a re-analysis of the deposited data

Results flagged for a closer look

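For 2 members, keratinocyte classes differed from Neg in opposite directions in the AA library, each by at least 1.5-fold with a counting interval of the ratio that excluded 1. *Il2rg* had a log2 ratio of AA to Neg of 0.79 in cycling keratinocyte-like cells and of -0.82 in suprabasal epidermis-like cells. *Il7* had a ratio of 0.80 in basal epidermis-like cells and of -0.67 in outer root sheath-like cells. In thinned cells the suprabasal ratio of *Il2rg* was 2.44, and with coarser clusters the outer root sheath ratio of *Il7* was 1.28, so both lower values reversed. With 1 library per group, the difference between the classes was not tested.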

How the results depend on the processing

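Over all cells, the ratios of the members kept their direction, and moved by less than the counting interval, with a mitochondrial limit of 5%, with mitochondrial, ribosomal protein and hemoglobin genes left out of the denominator, and with scaling by the median ratio, which shifts all log2 values by 0.039 or less. With doublets kept, *Il2rb* in AA against Neg was 0.16. With cells thinned to 1000 UMIs, which gives each cell the same weight, the log2 ratios of AA to Neg and of AA+Ab to AA were -0.72 and 1.34 for *Il15*, 0.54 and -0.15 for *Il2ra*, -0.020 and -0.22 for *Il2rb*, 0.053 and -0.14 for *Il2rg*, 1.15 and -0.29 for *Il7*, and -0.064 and 0.61 for *Il7r*, and that of AA+Ab to AA was -1.37 for *Il15ra*. For the ligands these came from few thinned cells with a UMI in Neg, AA and AA+Ab, 25, 23 and 45 for *Il15* and 11, 38 and 29 for *Il7*. With cells weighted to the class shares of Neg the log2 ratios were 0.11 and -0.25 for *Il15*, 0.74 and -1.10 for *Il15ra*, 0.052 and -0.21 for *Il2rg*, and -0.51 and 0.70 for *Il7r*, with 0.22 for *Il2ra* in AA against Neg and -0.32 for *Il2rb* in AA+Ab against AA. *Il15ra* kept its direction and stayed past 1.5-fold under each of these settings. The class weighting took the basal class as 1 class, so it did not even out basal cluster 3, where *Il15ra* was highest. That cluster was 7.71% of Neg and 15.6% of AA cells, and its part in the ratio was not tested.

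With a 2-fold limit, members higher in AA were 0 of 7 over all cells and 0 of 7 in keratinocytes, members lower in AA+Ab over all cells 1, and members lower in AA in T cell-like cells 0. Of the listed pathway genes, 2 were then higher in AA over all cells, 1 in keratinocytes and 3 in T cell-like cells, 0 were higher in AA+Ab in T cell-like cells, and 1 each was lower in AA+Ab in keratinocytes and in T cell-like cells. A minimum of 50 UMIs moved no count by over 1.5 times.

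By class, 466 of 518 ratios held, 43 moved and 9 reversed. The reversed ratios were, in thinned cells, 2.44 for *Il2rg* in AA against Neg in suprabasal cells, -0.74 for *Il7* in AA+Ab against AA in sebaceous gland-like cells and -0.16 for *Il15* in AA against Neg in the hair lineage. Few thinned cells had a UMI: 1 Neg and 10 AA for *Il2rg*, 5 AA and 1 AA+Ab for *Il7*, and 1 Neg and 1 AA for *Il15*. In outer root sheath-like cells at resolution 0.4 they were -0.51 and 0.016 for *Il15ra* and 1.28 for *Il7* in AA against Neg. In T cells from marker UMIs they were 1.30 for *Il2ra* and 0.67 for *Il7r* in AA against Neg. In CD8+ T-like cells at resolution 1.5 *Il7r* in AA+Ab against AA was -0.021. The cause was not tested. A CD8+ class with the sub-cluster led by *Ly6c2* and *Plac8* added, chosen after seeing the data, left its 4 ratios within their intervals. All 33 shares of co-detection moved under thinning. Depth was limited in small classes, such as the 4 and 53 CD8+ T-like cells of Neg and AA+Ab. No paired analysis was possible because each group is 1 library.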
